A study of Mus musculus with 9 samples.

Results

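The complement and microglia genes described here are C1qa, C1qb and C1qc, the genes of the 3 chains of complement C1q, together with C3, Tyrobp, Trem2, Csf1r, Cx3cr1, Aif1 and Ctss. They were chosen by name, and all probe sets annotated to them were taken. A probe set is the group of short oligonucleotides that reads 1 transcript on the array. Of the 10 genes, 9 had a probe set named for them and C3 was not analysed here, which left 9 of 18193 named genes and 15 of 45037 probe sets. The arrays measured RNA from brain hemispheres, without the cerebellum, of untreated adult male mice aged 11 ± 1 weeks. The strains were B6By.C.132.54, whose name marks donor DNA of BALB/c origin on a C57BL/6By background, and the inbred strains BALB/cJ and C57BL/6ByJ. Each strain had 3 arrays, and each array read a pool of 10 hemispheres, from 30 mice per strain and 90 mice in all, so the spread between arrays is a spread between pools.

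C1q is the recognition molecule of the classical complement pathway. Its A, B and C chains assemble into one protein, and in the brain they are made mainly by microglia, the resident macrophages. C1q binds to synapses and debris and, through C3, tags them for uptake. Csf1r is the receptor that keeps microglia alive, Cx3cr1 receives the neuronal chemokine fractalkine, and Trem2 senses lipids and signals through the adaptor Tyrobp. Aif1 encodes the cytoskeletal protein Iba1, widely used to stain microglia, and Ctss encodes the lysosomal protease cathepsin S.

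The 3 C1q genes lie side by side on chromosome 4, in the order C1qb, C1qc, C1qa. The sequences before the starts of C1qb and C1qc are shown because these genes differed between strains together. These reference sequences were not compared between the strains. They are the 250 bases before each gene start on the minus strand, from RefSeq with build GRCm38.p6, at chr4:136886201-136886450 for C1qb and chr4:136892915-136893164 for C1qc. Capitals mark GAGGAAG or GGAAGT, core letters bound by PU.1, the myeloid transcription factor, and its ETS relatives, here read on the opposite strand.
C1qb: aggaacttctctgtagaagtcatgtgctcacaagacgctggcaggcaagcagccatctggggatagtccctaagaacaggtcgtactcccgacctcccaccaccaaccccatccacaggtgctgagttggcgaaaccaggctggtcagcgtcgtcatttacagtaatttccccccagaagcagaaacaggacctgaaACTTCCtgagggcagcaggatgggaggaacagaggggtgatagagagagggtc
C1qc: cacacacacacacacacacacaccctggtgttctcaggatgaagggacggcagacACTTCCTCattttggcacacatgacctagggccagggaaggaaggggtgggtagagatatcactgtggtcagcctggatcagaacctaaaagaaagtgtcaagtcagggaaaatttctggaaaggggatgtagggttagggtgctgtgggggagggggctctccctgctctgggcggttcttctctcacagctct
C1qb held 1 GGAAGT, starting 53 bases before the gene, and no GAGGAAG. C1qc held both, overlapping in 1 run, from 195 bases before the gene. Searched on both strands, GGAAGT was in 19.7% and GAGGAAG in 10.6% of 32851 promoters of the same length. Of the 7 member genes in the promoter table, Trem2 held GAGGAAG once, and neither motif was in the windows of C3, Cx3cr1, Aif1 or Ctss. No window was available for C1qa, Tyrobp or Csf1r, so C1qb and C1qc could not be set against C1qa. Whether the motifs bear on the strain differences was not tested.

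All levels below are log2 intensities as deposited, without a pseudocount, and comparisons are made within a probe set, since brightness differs between probe sets for technical reasons. The 9 arrays had median intensities of 15.49 to 15.99. Each array correlated with the others of its strain at 0.988 to 0.9947 on average, least of all B6By.C.132.54 replicate 3. Arrays with the same replicate number deviated from their strain means together, most of all replicate 1. The tissue label was checked with cell markers. All 12 neuron, 11 astrocyte and 9 oligodendrocyte markers measured were at or above the median level of the probe sets (3.968), and so were 1 of 9 markers of border macrophages and 2 of 9 of blood cells. Of 8 markers of the cerebellum, which was not sampled, 3 were at or above it. They were Zic1, at 7.39 to 8.24 on the 9 arrays, Calb1, at 8.63 to 8.98, and Neurod1, while Pcp2, Cbln3, Gabra6, Car8 and Zic2 were below it. Of 32 other microglia genes, 26 were at or above it. Of the 15 member probe sets, 13 were above it, and those below it were 1 of Trem2 and 1 of C1qb.

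In BALB/cJ brain, the brightest probe sets of the B and C chains of C1q read lower than in C57BL/6ByJ, each 1.68-fold. The A chain did not pass the test. C1qc measured 5.91, 6.31 and 6.23 in the BALB/cJ pools, against 6.83, 7.00 and 6.87 in the C57BL/6ByJ pools. Each BALB/cJ pool lay below every C57BL/6ByJ pool. The difference was -0.75 ± 0.121 (SE), with a 95% interval from -1.01 to -0.48 (limma, Benjamini-Hochberg adjusted p = 0.00943). C1qb, read by its brightest probe set, 1417063_at, measured 6.89, 7.10 and 7.17 in BALB/cJ, against 7.70, 8.01 and 7.68 in C57BL/6ByJ. Again no pools overlapped. The difference was -0.75 ± 0.135, with an interval from -1.04 to -0.45 (limma adjusted p = 0.0193).

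C1qa, next to C1qc on the chromosome, measured 7.77, 7.95 and 7.87 in BALB/cJ, against 7.62, 7.88 and 7.58 in C57BL/6ByJ. The pools of the strains overlapped, and the difference of 0.17 ± 0.101 did not pass (limma adjusted p = 0.831). Its interval, from -0.06 to 0.39, excludes a fall of the size seen for the B and C chains. Of the 15 member probe sets 2 were called, both lower, where called means an adjusted p under 0.05 over all 45037. Among all probe sets 1.43% were called between these strains, and 0.921% were called lower. The pools of BALB/cJ lay entirely below those of C57BL/6ByJ for the same 2 members, and for 5.95% of all probe sets.

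Single arrays mattered for these calls, while the differences stayed at -0.81 to -0.64 (C1qb) and -0.83 to -0.63 (C1qc) with 1 left out. With C57BL/6ByJ replicate 2 left out, C1qc no longer passed (limma adjusted p = 0.0613). C1qb no longer passed when any BALB/cJ array was left out, be it replicate 1 (0.0911), replicate 2 (0.0761) or replicate 3 (0.0505), nor when C57BL/6ByJ replicate 1 (0.0526) or replicate 2 (0.101) was. Leaving out the replicate 1 arrays of all strains ended both calls (limma adjusted p = 0.225 for C1qb and 0.0562 for C1qc).

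**Figure D1:**
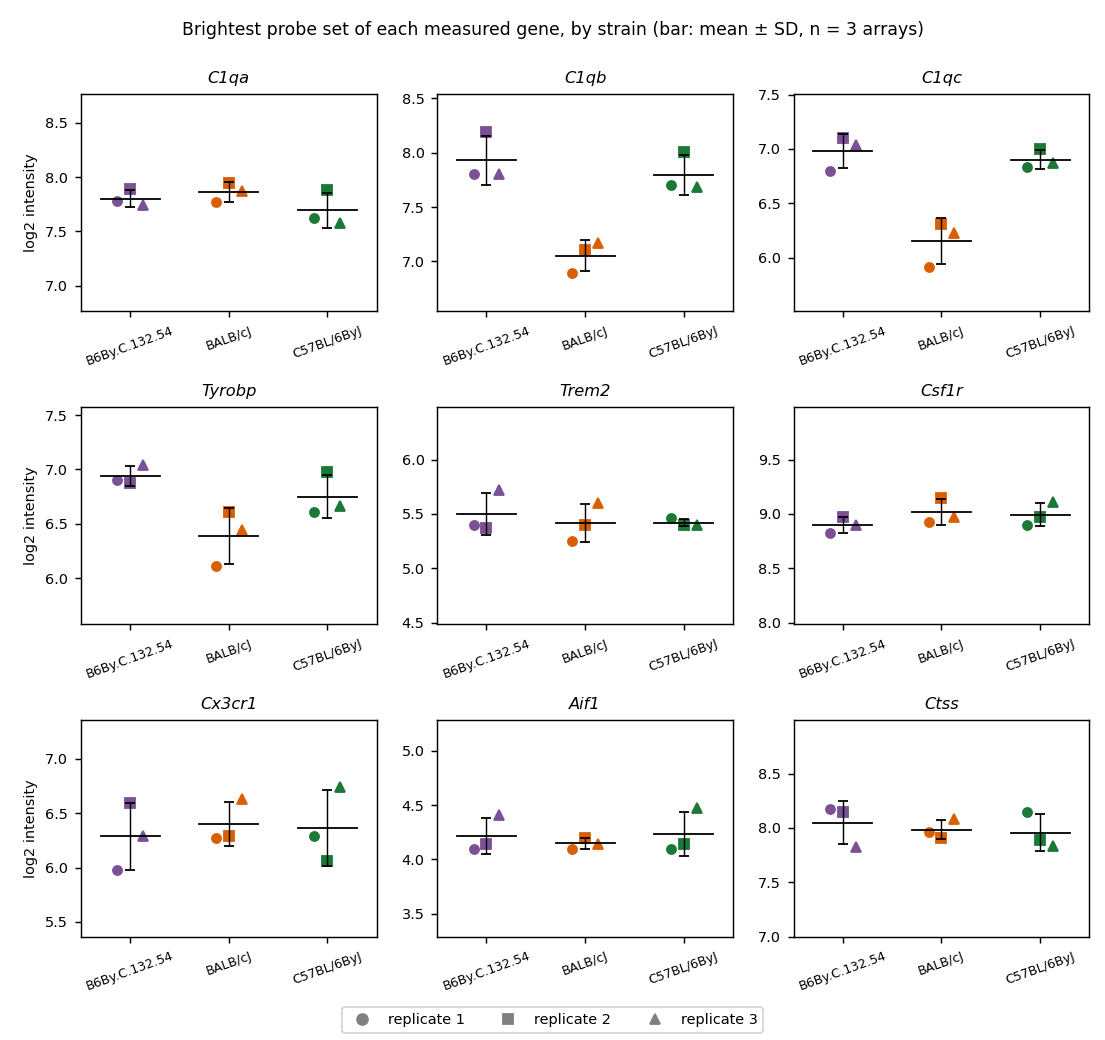
Log2 intensity (y axis, 2 units tall in every panel) of the brightest probe set of the 9 measured genes on the 3 arrays of B6By.C.132.54, BALB/cJ and C57BL/6ByJ (x axis). Symbols mark the replicate number and bars the mean ± SD. The BALB/cJ pools of C1qb and C1qc lie below all pools of the other strains, and in the other panels the strains' pools mix, apart from Tyrobp, where BALB/cJ lies below B6By.C.132.54.

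Between B6By.C.132.54 and C57BL/6ByJ, no C1q gene was called, and their pools overlapped. C1qc measured 6.80, 7.10 and 7.04 in B6By.C.132.54, a difference of 0.08 from C57BL/6ByJ with an interval from -0.19 to 0.35 (limma adjusted p = 0.94). C1qb measured 7.80, 8.19 and 7.80, a difference of 0.14 with an interval from -0.16 to 0.43 (limma adjusted p = 0.919). C1qa measured 7.78, 7.89 and 7.74, a difference of 0.11 with an interval from -0.11 to 0.33 (limma adjusted p = 0.916). In this comparison limma called 0 of the 15 member probe sets and 0% of all probe sets, with or without the replicate number as a block. An unadjusted limma p under 0.05 was found for 1751 probe sets, or 3.89%, with no member among them. Non-overlapping pools were found for 6.62% of all probe sets and for no member.

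Set against BALB/cJ, whose arrays also enter the comparison with C57BL/6ByJ, B6By.C.132.54 was 1.84-fold higher for C1qb and 1.78-fold higher for C1qc. The difference was 0.88 ± 0.135 (SE) for C1qb, with an interval from 0.58 to 1.18 (limma adjusted p = 0.00674). For C1qc it was 0.83 ± 0.121, with an interval from 0.56 to 1.10 (limma adjusted p = 0.00475). These were the 2 calls among the 15 member probe sets, beside 1.28% of all probe sets called and 0.713% called higher. With Tyrobp, 3 members had non-overlapping pools and were higher in B6By.C.132.54, as were 3.8% of all probe sets. From high to low, the order of strain means was B6By.C.132.54, C57BL/6ByJ, BALB/cJ for both genes, and B6By.C.132.54 and C57BL/6ByJ, neighbours in this order, did not differ beyond their spread. Leaving out any 1 array kept both calls (limma adjusted p of at most 0.0373 for C1qb and 0.0267 for C1qc), while leaving out all replicate 1 arrays lost that of C1qb (0.112). In bulk tissue, fewer cells of a type and less RNA per cell cannot be told apart. Whether the oligonucleotides bind the transcripts of each strain equally well was not tested.

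Of the 3 probe sets of C1qb, the brightest was the one called. The second, 1434366_x_at, measured 6.43, 5.79 and 5.58 in B6By.C.132.54, 5.92, 5.62 and 5.68 in BALB/cJ, and 6.43, 5.87 and 5.41 in C57BL/6ByJ. In all 3 strains its highest value was that of replicate 1, and the strains overlapped. Its difference between BALB/cJ and C57BL/6ByJ was -0.16 ± 0.254 (limma adjusted p = 0.977), with an interval from -0.72 to 0.40. The dimmest, 1437726_x_at, averaged 3.28 ± 0.519 in B6By.C.132.54, 2.95 ± 0.27 in BALB/cJ, against 3.24 ± 0.156 in C57BL/6ByJ (SD, n = 3 each), under the median level of the array. It was also highest in replicate 1 of each strain, with a difference of -0.29 ± 0.224 between BALB/cJ and C57BL/6ByJ (limma adjusted p = 0.904). The suffix x_at marks probe sets with oligonucleotides that can match other transcripts. The interval of 1437726_x_at, from -0.78 to 0.21, holds both 0 and a fall as large as that of 1417063_at. That of 1434366_x_at holds 0 and ends short of the -0.75 of 1417063_at, though it overlaps the interval of 1417063_at, from -1.04 to -0.45. C1qa and C1qc had no other probe set, so each C1q call rests on 1 probe set.

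**Figure D2:**
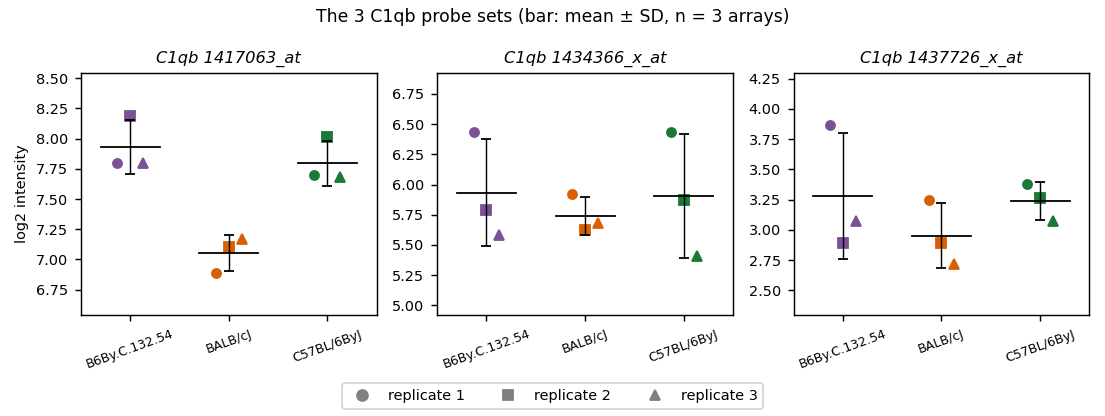
Log2 intensity (y axis) of the 3 probe sets of C1qb in each strain (x axis), with symbols for the replicate number and bars for the mean ± SD of 3 arrays. In 1417063_at the BALB/cJ arrays lie apart at 6.89 to 7.17, whereas in both x_at probe sets replicate 1 is the highest array of every strain and the strains overlap.

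Among the general microglia genes, Tyrobp had the largest differences involving BALB/cJ, and none of the 6 genes was called. Of all genes, 1.32% passed in BALB/cJ minus C57BL/6ByJ and 1.1% in B6By.C.132.54 minus BALB/cJ. At such shares 6 genes are too few to show fewer calls than elsewhere. Tyrobp, the signalling adaptor, measured 6.90, 6.87 and 7.04 in B6By.C.132.54, 6.11, 6.61 and 6.44 in BALB/cJ, and 6.61, 6.98 and 6.66 in C57BL/6ByJ. Every BALB/cJ pool lay below every B6By.C.132.54 pool, and the highest BALB/cJ pool and the lowest C57BL/6ByJ pool both read 6.61. For BALB/cJ minus C57BL/6ByJ the difference of -0.36 ± 0.138 (SE) did not pass (limma adjusted p = 0.486), and it was -0.22 without BALB/cJ replicate 1 and -0.47 without BALB/cJ replicate 2. B6By.C.132.54 minus BALB/cJ was 0.55 ± 0.138, also not called (limma adjusted p = 0.126), but it passed with the replicate number as a block (limma adjusted p = 0.0366), as did 1.85% of all probe sets. The difference had the same sign within each replicate number, at 0.79, 0.26 and 0.59.

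Trem2, the receptor that pairs with Tyrobp, measured 5.40, 5.37 and 5.72 in B6By.C.132.54, 5.25, 5.40 and 5.60 in BALB/cJ, and 5.46, 5.40 and 5.40 in C57BL/6ByJ. These pools overlapped throughout. The interval of BALB/cJ minus C57BL/6ByJ ran from -0.26 to 0.25 (limma adjusted p = 0.999). Its dimmer probe set stayed between 2.75 and 3.07 on all 9 arrays.

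Csf1r had 3 probe sets, none called in any comparison. The brightest, 1419872_at, measured 8.82, 8.97 and 8.90 in B6By.C.132.54, 8.93, 9.15 and 8.97 in BALB/cJ, and 8.90, 8.97 and 9.11 in C57BL/6ByJ. It was among the tightest of the members, with BALB/cJ minus C57BL/6ByJ at 0.02 ± 0.0948 and an interval from -0.19 to 0.23 (limma adjusted p = 0.995). The others differed between these strains by 0.15 (1419873_s_at; limma adjusted p = 0.858) and 0.02 (1423593_a_at; limma adjusted p = 0.995), and each was highest in replicate 2 of every strain. Of its ligands, Csf1 averaged 5.72 ± 0.105 in BALB/cJ and 5.61 ± 0.131 in C57BL/6ByJ (SD, n = 3 each; limma adjusted p = 0.962). Il34 averaged 5.66 ± 0.183 in BALB/cJ and 5.57 ± 0.16 in C57BL/6ByJ (limma adjusted p = 0.977).

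Cx3cr1, the fractalkine receptor, varied widely between pools of a strain. Its brighter probe set measured 5.98, 6.59 and 6.29 in B6By.C.132.54, 6.27, 6.29 and 6.63 in BALB/cJ, and 6.29, 6.06 and 6.74 in C57BL/6ByJ. The strains overlapped fully, and BALB/cJ minus C57BL/6ByJ had an interval from -0.39 to 0.45 (limma adjusted p = 0.995), so a change as large as that of C1qb lies outside it. The dimmer probe set, with 1 high value of 5.11 in C57BL/6ByJ replicate 3, gave -0.16 ± 0.245 (limma adjusted p = 0.973), and its interval reached -0.70. Cx3cl1, the gene of its ligand fractalkine, averaged 9.25 ± 0.127 in BALB/cJ and 9.42 ± 0.174 in C57BL/6ByJ (SD, n = 3 each; limma adjusted p = 0.86).

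Aif1 was dim, with 4.10, 4.14 and 4.41 in B6By.C.132.54, 4.10, 4.20 and 4.14 in BALB/cJ, and 4.10, 4.14 and 4.47 in C57BL/6ByJ. Those levels lie just above the median level of the array. Its interval between BALB/cJ and C57BL/6ByJ ran from -0.35 to 0.17 (limma adjusted p = 0.969). Ctss measured 8.17, 8.15 and 7.82 in B6By.C.132.54, 7.96, 7.91 and 8.08 in BALB/cJ, and 8.15, 7.89 and 7.83 in C57BL/6ByJ. Its pools overlapped, and the interval ran from -0.24 to 0.29 (limma adjusted p = 0.995). Its inhibitor cystatin C is described with the partner genes.

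**Figure D3:**
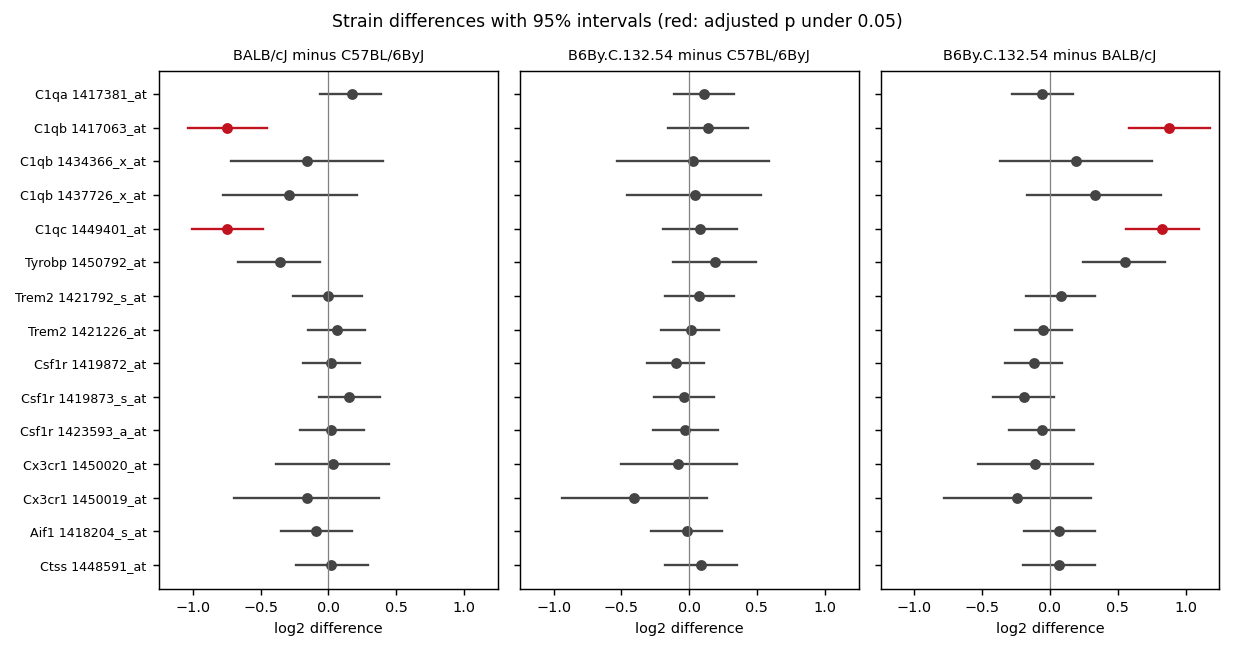
Log2 difference (x axis) of the 15 member probe sets (rows) in the 3 strain comparisons (panels), with 95% intervals from limma and calls in red. The calls are C1qb 1417063_at and C1qc, at -0.75 each in BALB/cJ minus C57BL/6ByJ and 0.88 and 0.83 in B6By.C.132.54 minus BALB/cJ, and the middle panel has none.

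To set the C1q chains against the general microglia genes, each probe set was centred on its mean over the 9 arrays. The mean over C1qa, C1qb and C1qc was 0.22 ± 0.139 in B6By.C.132.54, -0.33 ± 0.143 in BALB/cJ, against 0.11 ± 0.144 in C57BL/6ByJ (SD, n = 3 each). The mean over Tyrobp, Trem2, Csf1r, Cx3cr1, Aif1 and Ctss was 0.04 ± 0.0737 in B6By.C.132.54, -0.05 ± 0.108 in BALB/cJ, against 0.01 ± 0.0717 in C57BL/6ByJ. Subtracting the second from the first on each array left 0.15, 0.30 and 0.09 in B6By.C.132.54, -0.32, -0.22 and -0.30 in BALB/cJ, and 0.06, 0.31 and -0.07 in C57BL/6ByJ. The BALB/cJ arrays lay below all others. BALB/cJ minus C57BL/6ByJ was -0.38, and within replicate numbers 1, 2 and 3 it was -0.38, -0.53 and -0.23. When each gene was given by the median of its probe sets, which brings in the x_at probe sets of C1qb, it was -0.20. No test is given for this score, because the genes were chosen with results known.

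The chains also parted from each other. The log2 ratio of C1qb to C1qa within an array was 0.02, 0.31 and 0.06 in B6By.C.132.54, -0.88, -0.85 and -0.70 in BALB/cJ, and 0.08, 0.13 and 0.10 in C57BL/6ByJ. That of C1qc to C1qa was -0.98, -0.79 and -0.70 in B6By.C.132.54, -1.85, -1.64 and -1.64 in BALB/cJ, and -0.80, -0.88 and -0.71 in C57BL/6ByJ. Both ratios were lower on each BALB/cJ array than on any array of the other strains. Their differences between strains show unequal change of the probe sets, while their absolute size also carries how bright each probe set is. The median difference of the 6 general microglia genes between BALB/cJ and C57BL/6ByJ was 0.01, and that of all 18193 genes was 0.0154.

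**Figure D4:**
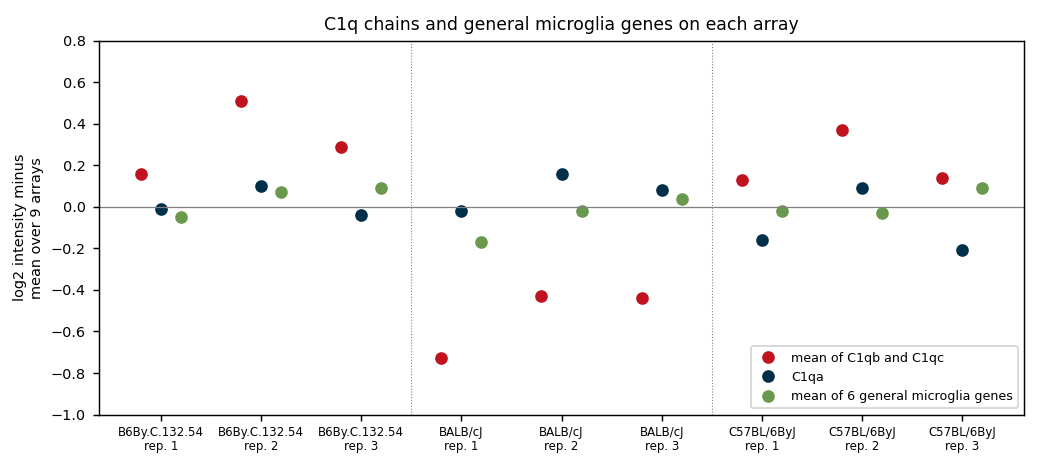
Log2 intensity minus the mean over 9 arrays (y axis) on each array (x axis), for the mean of C1qb and C1qc, for C1qa, and for the mean of the 6 general microglia genes. On the BALB/cJ arrays the mean of C1qb and C1qc lies at -0.73, -0.43 and -0.44, while C1qa and the microglia mean stay between -0.17 and 0.16.

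The genes beside the C1q cluster were read in the same comparisons. The 10 measured protein-coding genes on each side were taken, a set chosen after the values of the C1q genes were seen. In BALB/cJ against C57BL/6ByJ limma called 0 of these 20, beside 1.32% of all genes by their brightest probe set, or 1.99% with the block. Between B6By.C.132.54 and BALB/cJ it called 0, beside 1.1% of all genes. Between B6By.C.132.54 and C57BL/6ByJ it called 0, beside 0%. At such shares 20 genes are too few to show fewer calls than elsewhere. The differences of the 20 genes between BALB/cJ and C57BL/6ByJ ran from -0.22 to 0.50 with a median of 0.01. Wnt4, a secreted signalling protein, had the highest at 0.50 (limma adjusted p = 0.4), and passed with the replicate number as a block (0.0296), as did Rap1gap, a regulator of the GTPase Rap1 (0.35; limma adjusted p = 0.763, and 0.0484 with the block). Of the 20 genes, 13 were at or above the median of all probe sets.

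**Figure D5:**
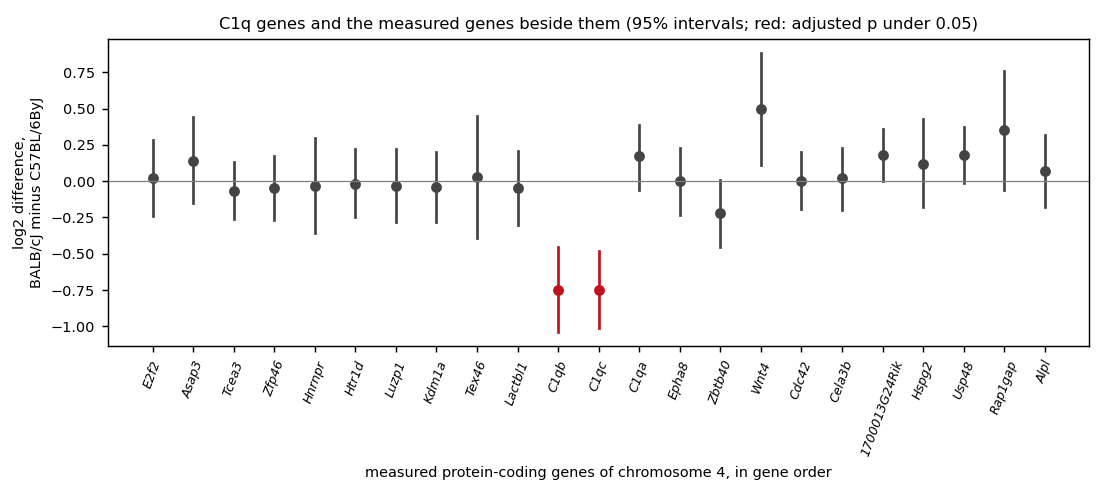
Log2 difference between BALB/cJ and C57BL/6ByJ (y axis, with 95% intervals) of the C1q genes and of 10 measured protein-coding genes on each side, in gene order along chromosome 4 (x axis). C1qb and C1qc, in red, lie at -0.75, C1qa beside them at 0.17, and the 20 other genes between -0.22 and 0.50.

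Of the other genes of the complement system, many were dim. Of 9 measured genes of the classical and lectin pathways none was called in any comparison, but 6 were below the median of all probe sets. Masp2, a protease of the lectin pathway, was among the dim genes. Its brighter probe set averaged 2.98 ± 0.236 in B6By.C.132.54 and 3.53 ± 0.117 in BALB/cJ (SD, n = 3 each). This probe set passed with the replicate number as a block (limma adjusted p = 0.0279, and 0.0649 without it), as did 1.75% of all genes. The other probe set of Masp2 was not called lower in B6By.C.132.54. Of 8 genes of the alternative and terminal pathway none was called, and 7 were below it. Among 23 measured receptors and regulators, 1 was called higher in BALB/cJ than in C57BL/6ByJ and none lower, beside 0.451% of all genes called higher. The one called was Cd59a, which blocks the membrane attack complex, at 6.15, 6.74 and 6.60 in BALB/cJ, against 5.55, 5.85 and 5.64 in C57BL/6ByJ. The groups did not overlap, and the difference was 0.82 ± 0.155 (SE; limma adjusted p = 0.0247). Its other probe set differed by 0.31 (limma adjusted p = 0.476). In B6By.C.132.54, at 5.89, 5.78 and 5.54, Cd59a was lower than in BALB/cJ (-0.76; limma adjusted p = 0.0405), where 1.1% of all genes were called, 0.517% lower and 0.588% higher. Csmd3, a transmembrane protein with complement control domains, averaged 5.93 in BALB/cJ, against 6.41 in C57BL/6ByJ, and passed with the block (limma adjusted p = 0.0437, and 0.0582 without it). The median difference over these 23 genes was 0.03, against 0.0154 for all genes. No gene was called among the 8 measured relatives with a C1q-like domain. At the shares given for all genes, lists of 8 or 9 genes are too short to show fewer calls than elsewhere.

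Against C57BL/6ByJ, Cd59a no longer passed when C57BL/6ByJ replicate 1, 2 or 3 or BALB/cJ replicate 2 or 3 was left out (limma adjusted p = 0.0503 to 0.13). Between B6By.C.132.54 and BALB/cJ it no longer passed with any 1 array left out other than BALB/cJ replicate 1 (0.0598 to 0.196).

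Of 13 partners of the member receptors and of Ctss, 1 was called higher in BALB/cJ than in C57BL/6ByJ and none lower, beside the 0.451% of all genes called higher. Cst3 encodes cystatin C, a secreted inhibitor of cathepsins including cathepsin S. It measured 11.99, 12 and 12.05 in BALB/cJ, against 11.68, 11.61 and 11.56 in C57BL/6ByJ. Every BALB/cJ pool was higher, by 0.39 ± 0.0803 in the mean (SE; limma adjusted p = 0.0375). The B6By.C.132.54 pools, at 11.68, 11.53 and 11.56, were lower than those of BALB/cJ (-0.42; limma adjusted p = 0.027). The call against C57BL/6ByJ was lost without any 1 of the BALB/cJ or C57BL/6ByJ arrays (0.0872 to 0.174). That between B6By.C.132.54 and BALB/cJ was lost without B6By.C.132.54 replicate 2 or 3, any BALB/cJ array or C57BL/6ByJ replicate 2 (0.0576 to 0.113).

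Of 32 other measured microglia genes, 3 were called lower in BALB/cJ than in C57BL/6ByJ and none higher, beside 0.874% of all genes called lower. Their median difference was -0.06. Without a call, the BALB/cJ pools lay entirely below those of C57BL/6ByJ for Fcer1g (-0.29), Ly86 (-0.28), Mpeg1 (-0.27) and Mertk (-0.26). They lay entirely above for Spi1 (0.36), which was dim. Among all genes the BALB/cJ pools lay entirely below for 6.7% and entirely above for 6.82%. Fcrls, an Fc receptor-like molecule characteristic of mouse microglia, measured 5.06, 4.94 and 4.77 in BALB/cJ, against 6.06, 6.42 and 6.23 in C57BL/6ByJ. The groups lay far apart, at -1.31 ± 0.124 (SE; limma adjusted p = 0.000195), and no left-out array ended this call. In B6By.C.132.54 it was at 6.05, 6.31 and 5.98, which is 1.19 above BALB/cJ (limma adjusted p = 0.000432).

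Olfml3, a secreted protein enriched in microglia, measured 5.73, 5.83 and 5.69 in BALB/cJ, against 6.07, 6.21 and 6.18 in C57BL/6ByJ (-0.40 ± 0.0812; limma adjusted p = 0.0357). Lpcat2, an enzyme of phospholipid remodelling, measured 5.65, 5.83 and 5.77 in BALB/cJ, against 6.11, 6.34 and 6.32 in C57BL/6ByJ (-0.50 ± 0.0991; limma adjusted p = 0.0307). For both the groups did not overlap. With 1 array left out the differences stayed at -0.44 to -0.37 (Olfml3) and -0.58 to -0.45 (Lpcat2), but neither call held throughout. That of Olfml3 was lost without any 1 BALB/cJ or C57BL/6ByJ array or B6By.C.132.54 replicate 1 (0.0586 to 0.179). That of Lpcat2 was lost without any 1 BALB/cJ array, or without C57BL/6ByJ replicate 2 or 3 (0.0761 to 0.163). Against BALB/cJ, B6By.C.132.54 was higher for Lpcat2 (0.49; limma adjusted p = 0.0376), and not called for Olfml3 (0.32; limma adjusted p = 0.122). The Lpcat2 call was lost without B6By.C.132.54 replicate 1 or 2, any BALB/cJ array or C57BL/6ByJ replicate 2 or 3 (0.0636 to 0.164). The second Lpcat2 probe set, with means of 3.06 in BALB/cJ and 2.93 in C57BL/6ByJ, was dim and not called.

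No marker of border and perivascular macrophages was called among 9 measured, of which 8 were below the median level of the array. Of all genes, 1.32% passed in BALB/cJ minus C57BL/6ByJ and 1.1% in B6By.C.132.54 minus BALB/cJ. At such shares 9 genes are too few to show fewer calls than elsewhere. Their summed intensity ran from 110 to 120 in B6By.C.132.54, from 109 to 116 in BALB/cJ and from 108 to 116 in C57BL/6ByJ. The sum over the 32 other microglia genes ran from 2176 to 2367 in B6By.C.132.54, from 2140 to 2284 in BALB/cJ and from 2244 to 2407 in C57BL/6ByJ, and these ranges overlap. Bright genes such as Ctsd, at a mean log2 level of 9, weigh most in such sums. An overlap therefore does not show that the dimmer genes were alike. The sum over the 3 C1q genes ran from 554 to 667 in B6By.C.132.54, from 397 to 463 in BALB/cJ and from 512 to 621 in C57BL/6ByJ, so that the BALB/cJ arrays lay apart. That sum is made of the C1qb and C1qc values given above and is not separate evidence.

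Single genes of other cell types also passed the test in the BALB/cJ and C57BL/6ByJ comparison, in which 0.451% of all genes were called higher and 0.874% lower. Of 11 astrocyte markers, Gfap, the filament protein of astrocytes, was called higher (0.92; limma adjusted p = 0.00393), with list sums from 4874 to 5042 in BALB/cJ and from 4863 to 5133 in C57BL/6ByJ. Of 12 neuron markers, Slc17a7, a vesicular glutamate transporter, was called lower (-1.45; limma adjusted p = 0.00272), with sums from 11430 to 13096 in BALB/cJ and from 11988 to 13521 in C57BL/6ByJ. Of 10 endothelial and pericyte markers, Cldn5, a tight junction protein, was called lower (-0.54; limma adjusted p = 0.0466), with sums from 935 to 1021 in BALB/cJ and from 984 to 995 in C57BL/6ByJ. None of 9 oligodendrocyte markers was called, but Mal, a myelin protein, passed with the replicate number as a block (-0.44; limma adjusted p = 0.0349, and 0.201 without it), with sums from 9847 to 10490 in BALB/cJ and from 9831 to 10530 in C57BL/6ByJ. Between B6By.C.132.54 and BALB/cJ, Rgs5, a pericyte gene, was called lower in B6By.C.132.54 (-0.56; limma adjusted p = 0.0361), Gfap was also called lower (-0.71; limma adjusted p = 0.0238) and Slc17a7 higher (1.24; limma adjusted p = 0.0088). The sums of each list overlapped between BALB/cJ and C57BL/6ByJ, and their part in the C1q difference was not tested.

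Over the 9 arrays, the gene whose profile was nearest to that of C1qb was C1qc. Nearness was the root mean square difference of centred log2 values, 0.109 between these genes, where C1qb itself varied by 0.417 around its mean. Next to C1qb came Zmym1 (0.115) and Ccl27a (0.131) on chromosome 4, Dap3 (0.139) on chromosome 3 and Nelfa (0.144) on chromosome 5, among 1753 genes. Nearest to C1qc were Nelfa (0.0807), Chd8 (0.0878), Dap3 (0.102), Ccl27a (0.103) and C1qb (0.109), among 2106 genes. Tyrobp ranked 98 for C1qb and 54 for C1qc. Cx3cr1 ranked 848 for C1qb and 963 for C1qc. Candidates had to vary by at least a set share of the SD of C1qb or C1qc, which includes the strain difference. The other genes named as nearest were also called lower in BALB/cJ than in C57BL/6ByJ. Their differences were -0.68 (Zmym1), -0.87 (Ccl27a), -0.96 (Dap3), -0.88 (Nelfa) and -0.92 (Chd8), against 0.03 for Cx3cr1. The ranks thus carry that strain difference and are not separate evidence of shared variation. Likeness within strains was not tested.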

How the data were processed

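Labelled cRNA from 7 µg of total RNA per pool was read on 9 Affymetrix mouse expression arrays. Per the submitters' processing notes the authors used GCOS and RMA, in versions and an order not given in the sources used here, and deposited 1 linear intensity per probe set and array. A deposited value can recur exactly: 8 of the 15 member probe sets held repeats, most of all Trem2 1421792_s_at. The number of arrays limits the precision. Intensities were taken to log2, and 64 control probe sets were left out. Platform annotation named 1 gene for 34945 probe sets; symbols were updated by Entrez identifier through RefSeq annotation of GRCm38.p6 (34741 matched). The brightest probe set represented a gene (18193 genes). The array table names no genome build, so coordinates are given for the RefSeq promoters alone.

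A model with 1 mean for each strain was fitted over the 9 arrays in limma 3.58.1 in R 4.3.3 (lmFit and eBayes, two-sided, Benjamini-Hochberg over 45037 probe sets, threshold 0.05). The code was tested on simulated data. Members and gene lists were chosen with earlier results of these data known. Named genes are all members, called genes of all the complement, microglia, partner and cell marker lists and, as most like C1qb and C1qc, 5 genes each that reach the median level and 0.5 of the gene's SD. Ligands of member receptors, genes whose call the block changes, the cerebellum markers and the neighbours of C1q were named after values were seen. So were the other microglia genes with pools that did not overlap.

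The study ran in 3 batches with every strain in each, but no label ties replicate numbers to batches. Deviations from strain means correlated between arrays of the same number at 0.519 to 0.542 (replicate 1), 0.147 to 0.18 (replicate 2) and 0.205 to 0.266 (replicate 3). The pairing was taken from this, and the replicate block is given where it changes a call. Alternatives were the block, each array left out, 2 strains alone, quantile or median scaling, a pseudocount of 16, no dim probe sets, eBayes with trend or robust, and, added after seeing the data, no replicate 1 arrays.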

Additional observations from a re-analysis of the deposited data

How the results depend on the processing

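Between BALB/cJ and C57BL/6ByJ, 644 probe sets were called, 410 without C57BL/6ByJ replicate 2 (410 to 706 with 1 array left out) and 309 without the replicate 1 arrays. Between B6By.C.132.54 and BALB/cJ, 575 were called, and 276 without the replicate 1 arrays. Between B6By.C.132.54 and C57BL/6ByJ none was called by limma under any alternative run, with 1751 at an unadjusted p under 0.05. With the replicate block 953, 834 and 0 were called, and among the 15 member probe sets the block changed 1 call, that of Tyrobp between B6By.C.132.54 and BALB/cJ (adjusted p = 0.0366). The difference of C1qb between BALB/cJ and C57BL/6ByJ kept its sign under all 18 alternatives (-0.81 to -0.64), as did that of C1qc (-0.83 to -0.63). The C1qb call was also lost with a pseudocount of 16 (-0.68, adjusted p = 0.0567). Of the non-members, Cd59a lost its calls with that pseudocount (0.0762 against C57BL/6ByJ, and 0.112 between B6By.C.132.54 and BALB/cJ), Cst3 its call against C57BL/6ByJ with median centring (0.0601), Olfml3 its call with quantile normalization (0.057) or a trend (0.0673), and Lpcat2 its call between B6By.C.132.54 and BALB/cJ with a trend (0.0526). With the arrays of 2 strains alone, the calls of Olfml3 (0.0591) and Cd59a (0.0544) against C57BL/6ByJ, and of Cst3 (0.0947), Lpcat2 (0.0897) and Cd59a (0.125) between B6By.C.132.54 and BALB/cJ, were lost. Without the replicate 1 arrays, Cst3 (0.236), Lpcat2 (0.173) and Olfml3 (0.281) were not called against C57BL/6ByJ, nor Cst3 (0.178) and Lpcat2 (0.407) between B6By.C.132.54 and BALB/cJ. Fcrls kept its calls under all 18 alternatives. The C1q score against the microglia genes, -0.38 between BALB/cJ and C57BL/6ByJ, was -0.20 when genes were given by the median of their probe sets, -0.53 within replicate number 2 and -0.23 within replicate number 3 (-0.47 to -0.27 with 1 array left out). Between B6By.C.132.54 and BALB/cJ it was 0.46, and 0.27 with that median.

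Differences near 0, none of them called, changed sign. Without the replicate 1 arrays these were, in BALB/cJ minus C57BL/6ByJ, C1qb 1434366_x_at (0.01), Trem2 1421226_at (-0.01) and Csf1r 1423593_a_at (-0.01); in B6By.C.132.54 minus C57BL/6ByJ, C1qb 1437726_x_at (-0.18), Trem2 1421226_at (-0.11), Cx3cr1 1450020_at (0.04), Cd59a (-0.08) and Csf1 (-0.06); and in B6By.C.132.54 minus BALB/cJ, Ctss (-0.01). With quantile normalization they were, in B6By.C.132.54 minus C57BL/6ByJ, Trem2 1421226_at (-0.03), Csf1r 1419873_s_at (0.03), Csf1r 1423593_a_at (0.04), Cst3 (0.03) and Lpcat2 (0.07), and, in B6By.C.132.54 minus BALB/cJ, Csf1 (0.02). The causes were not tested.

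With 1 array left out, the ranges in BALB/cJ minus C57BL/6ByJ were -0.41 to 0.10 (C1qb 1434366_x_at), -0.04 to 0.08 (Csf1r 1419872_at), -0.05 to 0.11 (Csf1r 1423593_a_at), -0.12 to 0.22 (Cx3cr1 1450020_at), -0.35 to 0.16 (Cx3cr1 1450019_at), -0.16 to 0.03 (Aif1), -0.04 to 0.12 (Ctss) and -0.01 to 0.18 (Il34). In B6By.C.132.54 minus C57BL/6ByJ they were -0.22 to 0.29 (C1qb 1434366_x_at), -0.26 to 0.23 (C1qb 1437726_x_at), -0.04 to 0.14 (Trem2 1421792_s_at), -0.07 to 0.09 (Trem2 1421226_at), -0.11 to 0.05 (Csf1r 1423593_a_at), -0.23 to 0.11 (Cx3cr1 1450020_at), -0.11 to 0.10 (Aif1), -0.08 to 0.06 (Lpcat2) and -0.02 to 0.15 (Cd59a). In B6By.C.132.54 minus BALB/cJ they were -0.06 to 0.37 (C1qb 1434366_x_at), -0.03 to 0.17 (Trem2 1421792_s_at), -0.13 to 0.03 (Trem2 1421226_at), -0.26 to 0.05 (Cx3cr1 1450020_at), -0.03 to 0.13 (Aif1), -0.11 to 0.13 (Csf1) and -0.02 to 0.10 (Cx3cl1).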
